A study of Drosophila melanogaster with 3 samples.

Results

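The nuclear pore genes of Drosophila melanogaster were examined as places where CG17385, the transcription factor target named in the labels, was found by chromatin immunoprecipitation sequencing (ChIP-seq). Members were the protein-coding genes of the Ensembl annotation whose symbol starts with Nup and a digit, or equals Elys, mbo, Mtor, Gp210 or Ndc1. The rule found 25 genes among 13945 protein-coding genes. The symbol Mtor is not in this annotation, which calls that basket gene Mgtor (FBgn0013756), so it is not a member and is described separately.

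The study holds 1 group of 3 biological replicates and no second condition. Each replicate is chromatin from whole embryos of mixed sex, 0 to 24 h old, of a single stably transgenic line that expresses CG17385 with GFP at its C-terminus. All replicates carry this fusion, the embryos mix tissues and ages, and which cells contributed to a peak cannot be told apart. The labels are at odds, with a text line on an input control beside assay and antibody fields for a ChIP, and the lists were read as ChIP.

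Nuclear pores are the channels through the nuclear envelope by which proteins and RNA pass between nucleus and cytoplasm. An outer ring on each face and an inner ring form the scaffold, a membrane ring anchors it, channel proteins with phenylalanine-glycine repeats form the permeability barrier, and cytoplasmic filaments and a nuclear basket extend from either face. In Drosophila some pore proteins, Nup98 and the basket proteins among them, are also known to associate with chromatin.

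A peak was counted at a promoter where its summit lay no more than 500 bp from any start site of a protein-coding gene. The authors deposited 1 list per replicate and 1 pooled list of 30000 peaks each. They also deposited an optimal list of 7588 peaks from the irreproducible discovery rate (IDR) procedure. Signal is the authors' own value per peak, with no scale stated, and rank 1 is the strongest peak of a list. The 7588 strongest peaks of a replicate list, as many as the IDR list holds, are called its top N. Sequencing depth is unknown, since replicate and pooled lists have the same set length. Replicate lists share 1 control file, so they are not fully independent.

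Sequences at or beside the promoter summits of the 6 pore genes with an IDR peak, and of Nup133, are shown first, because 2 of them hold a repeat word and the others do not. They were read from the RefSeq copy of the Release 6 assembly (dm6), 5′ to 3′ on the strand of the pore gene. Capitals mark the words described further on, which are the repeat word GAAGAAG here and CAGCTG or the word ATCGAT in the next set. In the 5′ UTRs of Nup153 (chrX:16599475-16599504, plus strand) and Nup358 (chr3R:25249545-25249574, plus strand), 30 bases around the first copy of the repeat word are given.
Nup153: cagagcgtGAAGAAGaggaacgaagaattg
Nup358: tgacgagtGAAGAAGaatctaacgcgaagc

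The 5 other windows lie between the pore gene and its head-to-head neighbour. They are Nup37 (chr3R:25247515-25247657, plus strand), Nup160 (chr2L:11123568-11123776, plus strand), Nup98-96 (chr3R:23781622-23781764, minus strand), Nup93-2 (chr3R:14898373-14898545, minus strand, the part nearest its start) and Nup133 (chr3R:22690381-22690606, plus strand). The summits of Nup37 and Nup98-96 lay just past one end of their windows, in 5′ UTR that is not printed. None of these 5 windows held the repeat word.
Nup37: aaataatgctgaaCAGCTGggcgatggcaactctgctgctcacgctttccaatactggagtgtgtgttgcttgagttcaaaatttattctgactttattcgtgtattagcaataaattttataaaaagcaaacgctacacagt
Nup160: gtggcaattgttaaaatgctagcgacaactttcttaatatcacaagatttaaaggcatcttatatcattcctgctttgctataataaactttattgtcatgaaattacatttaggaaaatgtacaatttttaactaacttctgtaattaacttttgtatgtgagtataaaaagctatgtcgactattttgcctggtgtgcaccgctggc
Nup98-96: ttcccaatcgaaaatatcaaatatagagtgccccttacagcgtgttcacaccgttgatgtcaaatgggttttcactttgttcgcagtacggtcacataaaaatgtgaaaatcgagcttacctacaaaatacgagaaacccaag
Nup93-2: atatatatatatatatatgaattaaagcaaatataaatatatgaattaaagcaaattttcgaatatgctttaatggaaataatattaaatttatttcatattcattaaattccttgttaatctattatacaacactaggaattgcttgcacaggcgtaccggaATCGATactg
Nup133: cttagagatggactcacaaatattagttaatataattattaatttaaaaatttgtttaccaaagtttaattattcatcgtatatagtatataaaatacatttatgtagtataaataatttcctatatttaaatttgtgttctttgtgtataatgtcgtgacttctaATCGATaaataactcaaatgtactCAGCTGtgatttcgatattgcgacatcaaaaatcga

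An IDR promoter peak was found at 6 of the 25 pore genes (24%), against 26.9% of all protein-coding genes. The 6 were Nup37, Nup153, Nup160, Nup358, Nup98-96 and Nup93-2, in order of signal. Their median signal was 476.8, with a range of 185.5 to 2007, against a median of 381.7 over the 3746 genes with an IDR promoter peak. The share of the pore genes lies near that of all genes. Among genes with an IDR peak, 6.41% had a higher signal than the strongest member and 90.2% a higher signal than the weakest.

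Each replicate list was then taken alone. In the top N, 6 pore genes (24%) had a promoter summit in replicate 1, against 27.9% of all genes. In replicate 2 it was 7 (28%), against 25.2%, and in replicate 3 it was 7 (28%), against 28.3%. The mean was 26.7% ± 2.31 for the pore genes and 27.1% ± 1.70 for all genes (SD, n = 3). The difference of -0.452 points ± 3.35 (SD, n = 3) is smaller than its spread, and its sign differs between replicates.

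A top-N summit in every replicate was found at 5 pore genes (20%), against 20.6% of all genes. These were Nup37, Nup153, Nup358, Nup98-96 and Nup133. In the pooled list of 30000 peaks 11 pore genes (44%) had a promoter summit, against 47.6%. In any of the 5 lists 17 (68%) had one, against 62.5%. The 8 pore genes with none in any list were Gp210, Ndc1, Nup154, Nup188, Nup205, Nup75, Nup93-1 and mbo.

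**Figure D1:**
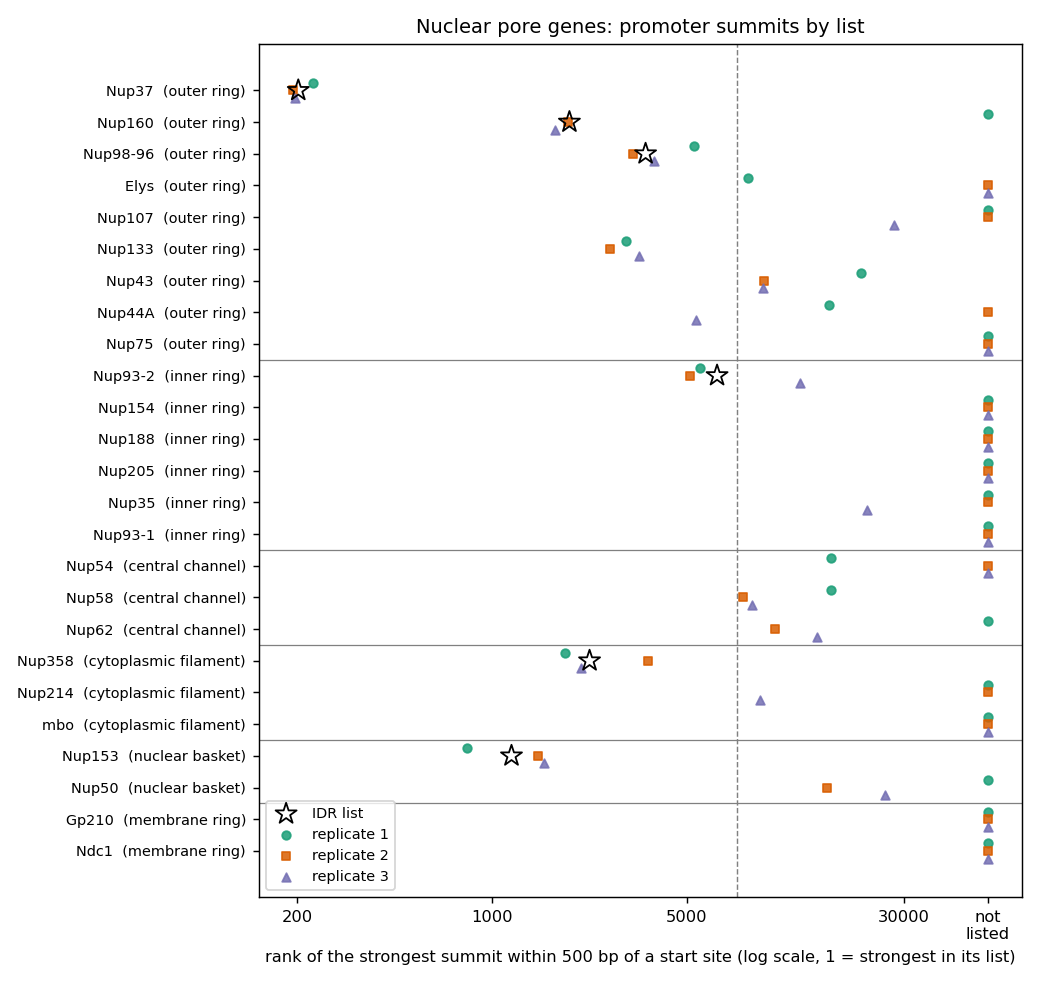
Rank of the strongest summit within 500 bp of a start site for the 25 nuclear pore genes (rows, grouped by substructure) in the 3 replicate lists (filled symbols) and the IDR list (stars), on a log axis, with genes absent from a replicate list at the right. The dashed line marks rank 7588, and Nup37 lies near rank 200 in every list while Nup160 is missing from replicate 1.

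In the plot of ranks, Nup37, Nup153, Nup358, Nup98-96 and Nup133 keep to the left of the dashed line in every replicate. Most inner ring and membrane ring genes stand at the right edge in all 3 lists.

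The outer ring, or Nup107 complex, is the Y-shaped scaffold of each pore face, and 3 of its 9 genes had an IDR peak. Nup37 (FBgn0039301), a subunit of this complex, had the strongest signal of all members, 2007 at IDR rank 202, with the summit at 25247509 on 3R in the interval 25247310 to 25247730. Its summit ranked 229, 194 and 196 in replicates 1, 2 and 3, with signals of 612.0, 534.1 and 867.8. The ranks are close to each other in all 3 lists.

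The Nup37 summit lay 149 bp upstream of its start but only 5 bp inside RpS27, a ribosomal protein gene on the other strand. The start sites of this head-to-head pair are 144 bp apart, and the summit falls in the 5′ UTR of RpS27. A peak this close to both starts cannot be given to one gene. When each summit counted only for the gene with the nearest start, Nup37 dropped out of the list.

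Nup160 (FBgn0262647), a long arm subunit of the Y complex, had a signal of 504.5 at IDR rank 1896, with the summit at 11123716 on 2L, 61 bp upstream of its start. Its summits ranked 1881 in replicate 2 and 1685 in replicate 3, with signals of 139.7 and 242.9. Replicate 1 listed no summit there. In replicate 1 the list was empty over 55867 bp, from 11113219 to 11169086, where replicates 2 and 3 each had 2 top-N summits.

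Of 3045 genes with an IDR promoter peak and a top-N summit in both other replicates, 16 (0.525%) had no promoter summit at any position in replicate 1. Nup160 is 1 of these 16. The same count was 129 of 3179 (4.06%) for replicate 2 and 9 of 2942 (0.306%) for replicate 3. The start of Nup160 lies 210 bp from that of Csl4, on the other strand, whose start is 149 bp from the summit.

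Nup98-96 (FBgn0039120) encodes both the mobile pore protein Nup98 and the scaffold protein Nup96 from 1 transcription unit. It had 2 IDR peaks at its promoter. The stronger, with the summit at 23781578 on 3R, had a signal of 309.7 at rank 3556 and lay 43 bp downstream of the start, in the 5′ UTR. The weaker had a signal of 253.3 at rank 4511 and lay upstream, at -204 bp. In replicates 2 and 3 the strongest summit was near the downstream one, at ranks 3194 and 3807, and in replicate 1 it was near the upstream one, at rank 5324. The start of mbc, a myoblast fusion gene on the other strand, is 144 bp away, and the 2 summits lie on either side of the stretch between the starts.

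Nup133 (FBgn0039004) is the member that had a top-N summit in every replicate and yet no IDR peak. Its summit ranked 3026, 2655 and 3360 in replicates 1, 2 and 3, with signals of 115.4, 106.7 and 143.0, at 87, 80 and 47 bp upstream of the start. All replicates place it well inside the top N. The pooled and IDR lists hold no summit there, and the pooled list is empty over 33063 bp, from 22686752 to 22719815, where each replicate has 1 top-N summit.

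Nup133 was 1 of 20 genes (0.698% of the 2866 with a top-N promoter summit in every replicate) without a promoter summit in the pooled list, and 36 (1.26%) had no IDR promoter peak. The nearest IDR summit to Nup133 was 4057 bp away, at Gclm. wfs1, whose start is 227 bp from that of Nup133, is among the same 20 genes. The cause of such gaps was not tested.

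The other outer ring genes were weak or absent. Nup43, a subunit of the Y complex, was listed at rank 8489 in the pooled list and at ranks 21122, 9438 and 9406 in replicates 1, 2 and 3. Nup44A, the Seh1 homologue, was at pooled rank 8473 with a signal of 143.8, at 16150 in replicate 1, at 5414 in replicate 3, and absent from replicate 2. The nearest other starts to their pooled summits were those of WRNexo, 287 bp from that of Nup43, and ACC, 85 bp from that of Nup44A. Their signals lie just under the lowest of the IDR list, 159.9, whereas Nup93-2 with 185.5 lies just above it.

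Elys, which brings pore assembly to chromatin after mitosis, was listed only in replicate 1, at rank 8305, just past the top N. That summit lay nearer to the start of Ranbp21 on the other strand (174 bp) than to that of Elys (268 bp). Nup107, the scaffold subunit that names the complex, was listed only in replicate 3, at rank 27709. Nup75, the Nup85 homologue, had no summit in any list. Over the 3 replicates the outer ring had top-N summits at 44.4% ± 11.1 of its 9 genes, against 27.1% ± 1.70 of all genes (SD, n = 3). All of the 9 but Nup107 had a head-to-head start within 500 bp. Of all protein-coding genes with such a start 47% had an IDR promoter peak, and of the others 19.3%.

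The inner ring holds the scaffold in the plane of the membrane, and 1 of its 6 genes had an IDR peak. Nup93-2 (FBgn0038274), 1 of 2 fly genes for Nup93, had a signal of 185.5 at rank 6418, with the summit at 14898445 on 3R, 73 bp upstream of its start. This is the weakest of the 6. Its ranks were 5552, 5134 and 12711 in replicates 1, 2 and 3, with signals of 72.1, 61.5 and 47.2, so replicate 3 does not place it in the top N. The start of CG3817 on the other strand lies 294 bp from the summit.

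Its paralogue Nup93-1 had no summit in any list within 500 bp. Nup154, the Nup155 homologue, and the large scaffold genes Nup188 and Nup205 had none either. Nup35, a membrane-binding inner ring gene, was listed only in replicate 3, at rank 22217. The inner ring had top-N summits at 11.1% ± 9.62 of its 6 genes over the replicates, against the same 27.1% ± 1.70 of all genes (SD, n = 3). It was below the outer ring in every replicate, by the counts 1 of 6 against 3 of 9, 1 of 6 against 4 of 9, and 0 of 6 against 5 of 9. The direction is the same in all 3 lists, on very few genes. It turned with a 1000 bp window, where 4 of 6 inner ring genes and 4 of 9 outer ring genes had an IDR summit. Nup154, Nup35 and Nup93-1 of the inner ring, but only Nup107 of the outer ring, had no head-to-head start within 500 bp. Whether this bears on the order of the rings was not tested.

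The central channel genes Nup62, Nup58 and Nup54 encode the phenylalanine-glycine repeat subcomplex, and none of the 3 had an IDR peak or a top-N summit in any replicate. Nup58 came nearest, at ranks 16394, 7953 and 8574 in replicates 1, 2 and 3. Nup62 was listed at ranks 10342 and 14673 in replicates 2 and 3 and not in replicate 1. Nup54 was listed only in replicate 1, at rank 16505. The nearest other starts were those of CG7997, 197 bp from the pooled summit of Nup62, and CG43204, 428 bp from the summit of Nup54. All 3 thus had a weak summit in some list. Nup98, another repeat protein, was counted in the outer ring with its shared gene.

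Of the 3 cytoplasmic filament genes, Nup358 had an IDR peak. Nup358 (FBgn0039302), the RanBP2 homologue that holds RanGAP at the pore, had a signal of 449.0 at rank 2239. The summit at 25249555 on 3R lay 207 bp downstream of its start, in its 5′ UTR, in the interval 25249335 to 25249774. It ranked 1826, 3618 and 2078 in replicates 1, 2 and 3, with signals of 167.6, 82.7 and 208.0. All of them are in the top N, and replicate 2 is the lowest.

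Nup358 is the next gene after Nup37 on 3R and reads the same way. Nup37 ends at 25249100 and Nup358 starts at 25249348. Their summits are separate, though that of Nup37 is shared with RpS27. Nup214, which anchors export factors at the filaments, was listed only in replicate 3, at rank 9136 and 488 bp upstream. Its summit lay closer to the start of ReepA than to its own. mbo, the Nup88 homologue, had no summit in any list.

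Of the 2 basket genes that the rule finds, Nup153 had an IDR peak. Nup153 (FBgn0061200), which joins the basket to the nuclear ring, had a signal of 733.1 at rank 1175. The summit at 16599475 on X lay 234 bp downstream of the start, in its 5′ UTR, in the interval 16599235 to 16599679. Its ranks were 812, 1462 and 1536 in replicates 1, 2 and 3, with signals of 304.4, 168.7 and 262.6. It is the second strongest member, and it was in the top N in all replicates.

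CG9784 starts 26 bp from Nup153 on the other strand, but the summit lies 260 bp from that start, on the Nup153 side. Nup50, an importin-binding basket protein gene, was weak, at pooled rank 15203, at ranks 15892 and 25687 in replicates 2 and 3, and absent from replicate 1. Its pooled summit lay nearer to the start of Asap on the other strand (17 bp) than to its own (52 bp). Mgtor, which encodes the long coiled-coil basket protein and stands outside the rule, had no summit in any list. Counting it would give 6 of 26 genes.

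Both membrane ring genes lacked a summit in every list. Gp210 encodes a single-pass membrane glycoprotein of the pore and Ndc1 a multi-pass membrane protein that anchors the scaffold. The nearest IDR summit lay 21957 bp from Gp210 and 1475 bp from Ndc1.

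**Figure D2:**
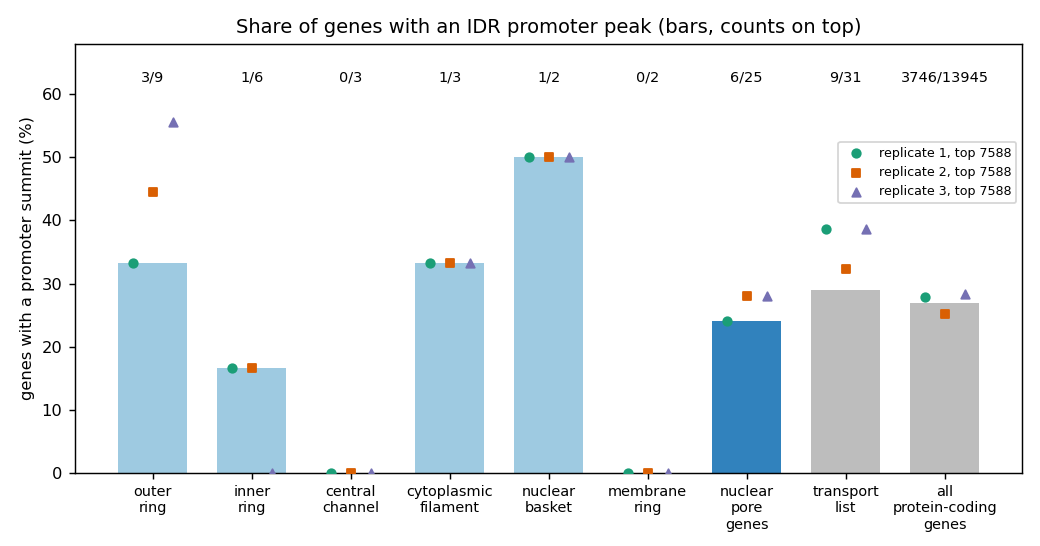
Share of genes with an IDR promoter peak (bars, with counts above) by pore substructure, for all 25 nuclear pore genes, for the 31 genes of the transport list and for all 13945 protein-coding genes. Symbols give the share with a top-N summit in each replicate list, from 33.3% to 55.6% for the outer ring and from 0% to 16.7% for the inner ring.

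The bars of the substructures rest on 2 to 9 genes each, so 1 gene moves a bar by 11.1 to 50 points. The bar of the 25 pore genes (24%) stands slightly below that of all genes (26.9%).

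The IDR peaks of the pore genes were also counted by chromosome. On 2R 0 of 8 pore genes had one, against 25.1% of all genes there, and on 3R 4 of 9 had one, against 28%. On X it was 1 of 5, against 26.1%, and on 2L 1 of 3, against 27%. These counts are small, and no difference between chromosomes was tested. No member lies on 3L or chromosome 4. The 3R count includes the adjacent genes Nup37 and Nup358.

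No IDR peak was found elsewhere within the bodies of the 25 pore genes. The distance to the nearest IDR summit had a median of 1475 bp. It stopped well short of the 500 bp limit on the inside, with Nup153 at 234 bp the farthest. Just outside came Nup44A at 549 bp, Nup93-1 at 598 bp, Nup35 at 641 bp, Nup154 at 683 bp and Nup58 at 694 bp.

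Most of these outside summits lay at the start of another gene, named here after their values were seen. The summit near Nup93-1 had a signal of 1458 and lay 79 bp from the start of Clic. That near Nup154 had a signal of 655.9 and lay 16 bp from RpL9. Those near Nup35 and Nup58 lay 26 bp from Rip11 and 54 bp from Vha13. With a 1000 bp window 11 of 25 pore genes (44%) had an IDR summit, against 31% of all genes.

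**Figure D3:**
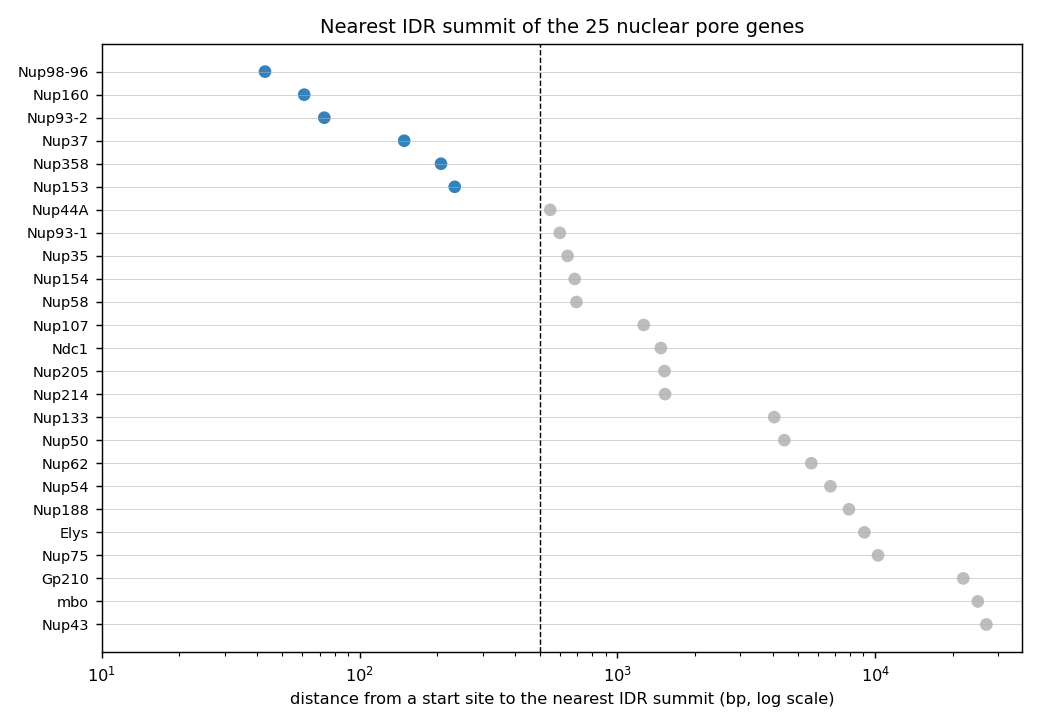
Distance from a start site to the nearest IDR summit for each of the 25 nuclear pore genes, on a log axis. The 6 genes in blue lie within 500 bp (dashed line), 5 lie between 549 and 694 bp, and 4 lie beyond 10000 bp.

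The plot of nearest summits shows that no member lies between 234 and 549 bp. The count of 6 therefore stays the same for a 250 bp window.

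Pore genes often stood head to head with a neighbour. A start site on the opposite strand, diverging within 500 bp, was found for 16 of 25 pore genes (64%), against 27.4% of all protein-coding genes. Among IDR genes the shares were 5 of 6 pore genes (83.3%) and 47.8% of all. Of the 16 divergent pore genes 5 had an IDR peak (31.2%), against 47% of all divergent genes. Of the 9 others 1 had one (11.1%), against 19.3%. Within both kinds of promoter the share of pore genes was the lower, on counts of 5 and 1.

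The holders of the repeat word also differed from the others in where the summit lay. At the 500 strongest IDR summits the words of 8 bases most in excess over flanks were repeats of GAA, led by AGAAGAAG, found at 49.8% of them and in 2.2% of flanks. The shorter word GAAGAAG was therefore counted, on either strand and within 100 bases of a summit. It was present at 53% of the 500 strongest IDR summits, 17.8% of IDR promoter summits and 4.75% of flanks. Over windows of the same length centred on the start sites of all protein-coding genes it was present in 3.84%.

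Among the pore genes the word was found at 2 of the 6 IDR summits, those of Nup153 and Nup358. Nup153 held 3 copies, beginning 8, 47 and 56 bp past the summit, and Nup358 held 1 that covers the summit. All 4 copies read on the strand of the gene. The word was absent from the windows of Nup37, Nup160, Nup98-96, Nup93-2 and Nup133.

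These 2 summits are also the only member summits in the IDR list more than 200 bp downstream of a start. Of all genes with an IDR promoter peak, 2810 had the strongest summit upstream of the start, and 13.6% of these held the word there. The word was found for 30.9% of the 936 genes with the summit at or downstream of the start. It was found for 45.7% of the 245 genes with the summit more than 200 bp downstream. Genes that share a summit are each counted, as the 3746 genes have 2831 summits. The Nup153 summit is thus also counted as upstream of CG9784, at -260 bp. In the bin of 201 to 300 bp, which holds both pore genes, the word was found for 53 of 98 genes (54.1%). No share of the word at these positions is given for genes without a peak. A trait of summits and one of the sequence downstream of starts thus cannot be told apart here. Of the 112 genes with the word beyond 200 bp, 84 held it on the strand of the gene only, 26 on the other strand only and 2 on both.

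**Figure D4:**
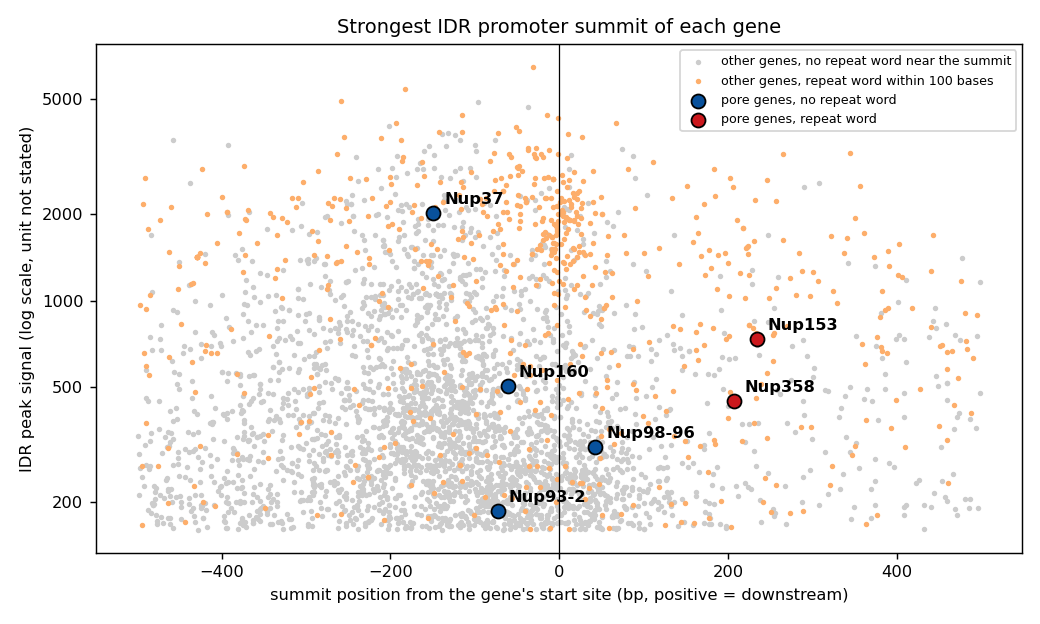
Signal of the strongest IDR promoter summit (log axis, unit not stated) against its position from the start site for the 6 nuclear pore genes (large points) and the other genes with an IDR promoter peak (small points). Red and orange points hold the repeat word within 100 bases, which includes Nup153 and Nup358 at 234 and 207 bp downstream and not Nup37, the strongest member.

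**Figure D5:**
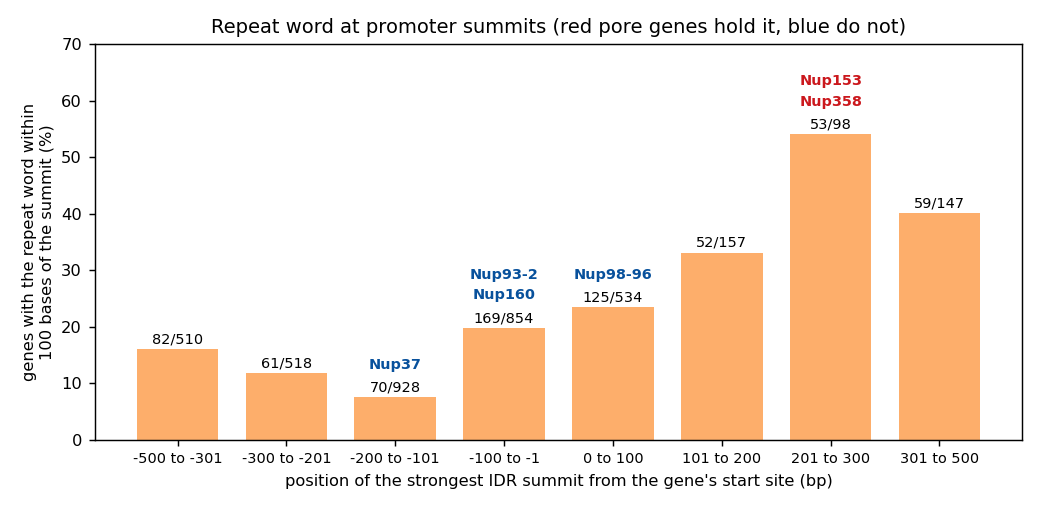
Share of genes whose strongest IDR promoter summit has the repeat word within 100 bases, by position of the summit from the start site, with counts above each bar. Nup153 and Nup358 (red) are in the bin of 201 to 300 bp with 54.1%, and Nup37 (blue), by its own start, in the bin with 7.54%. By the start of RpS27, 5 bp away, the Nup37 summit falls in the bin of 0 to 100 bp with 23.4%.

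The plots of summit position show the word holders among the pore genes to the right of the start and the others near it or upstream. Over all genes the median signal was 1323 for the 671 with the word and 335.2 for the 3075 without. The word was picked at the strongest of these same summits, so this gap follows in large part from the choice and is no separate result. Nup37 shows that a strong peak can lack the word, with a signal of 2007.

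The word was also counted near the starts of all pore genes, on small numbers and without a test. Within 500 bp of a start site 3 of 25 pore genes (12%) held it, against 24.4% of all genes. Besides Nup153 and Nup358 this was Ndc1, at -486 bp from its start, which had no peak. Of all genes with the word there 39.6% had an IDR promoter peak, and of those without it 22.7%. Since the word was picked at IDR summits of these same data, this gap too follows in large part from the choice. It is no separate result. Of the 3 pore genes with the word, 2 had an IDR promoter peak (66.7%), and of the 22 without it, 4 had one (18.2%).

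Other promoter words were counted at the pore gene summits. The E-box-like CAGCTG, present in 13.8% of all promoters, was found at the summits of Nup37, Nup133 and Nup44A. ATCGAT, present in 18.9%, was found once at Nup93-2 and at 2 places at Nup133, 1 of them in the printed stretch, and at Nup50 inside the DRE. The DRE, TATCGATA, which contains ATCGAT and is known as the site of DREF, was present in 7.84% and was found at Nup50 only. GAGAG, the letters of the GAGA factor site, was present in 22.5% of promoters and found only at the weak Nup44A summit, as was GGTCACAC, present in 6.76%. The member counts used 201 bases around the summit, on either strand. They cover the 12 members with an IDR or pooled summit or, for Nup133, one in every replicate. A match is not a bound site. The promoter shares are for windows centred on start sites. At IDR promoter summits CAGCTG was present in 13.8%, ATCGAT in 13.1%, the DRE in 5.69%, GAGAG in 27.5% and GGTCACAC in 3.74%.

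The base composition of the windows also differed. The G and C share was 45.3% at Nup153 and at Nup358 and 44.3% at Nup37. It was 34.3% at Nup160, 33.3% at Nup98-96, 27.4% at Nup133 and 26.9% at Nup93-2. The median was 37.8% over IDR promoter summits and 41.3% over all promoters. At the weaker summits of Nup44A and Nup50, which lack the word, it was 46.8% and 46.3%, above both word holders. It was 35.3% at Nup43 and 30.3% at Nup58 and at Nup62.

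The genes that work with the pore were listed for comparison, namely 31 genes of transport receptors, the Ran cycle, mRNA export and pore-associated proteins. An IDR promoter peak was found at 24% of the pore genes, at 9 of the 31 listed genes (29%) and at 26.9% of all genes. The 4 with the strongest peaks were msk, an importin gene (signal 2656, rank 86), Kap-alpha3, an importin alpha gene (1219), emb, the exportin gene known as Crm1 (1098), and Impbeta11, an importin gene (780.6). The emb summit lay far from its start, at -452 bp, and is not counted with a 250 bp window, which leaves 8 of the 31. The count was also 8 when each summit counted only for the gene with the nearest start. The msk summit ranked 75, 100 and 92 in replicates 1, 2 and 3. In the top N of the replicates the pore genes had 26.7% ± 2.31, the transport list 36.6% ± 3.72 and all genes 27.1% ± 1.70 (SD, n = 3).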

How the data were processed

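Peak lists of 3 biological replicates of 1 group were used. Per the labels, the assembly is dm6 and chromatin was sonicated to 200 to 800 bp. The text files deposited by the authors trace each replicate list to that replicate's alignment plus a file common to all, taken here as the control. Not given in the sources used here: aligner, peak caller and IDR threshold. The authors deposited a signal for each peak, on an unstated scale, and the −log10 of its q-value. Signal was used for ranks within a list and for description. Depth per sample is unknown, so no intervals are given.

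Start sites came from Ensembl release 115, sequence from the RefSeq copy of Release 6. The 25 members had identical coordinates in both annotations, and 0 listed peaks lay beyond a chromosome end. Summits are printed 1-based. With 1 group there is no test. Member counts are set beside those of all protein-coding genes, with the SD over replicate lists. The 31 transport genes were all matched, 3 of them by another spelling or synonym. All members were named, with the gene whose start is the nearest other one within 500 bp of a member summit and the 4 transport genes with the strongest peaks. Members, lists and rules were chosen with earlier results of these data known, and the repeat word was chosen after seeing the most frequent words. Alternatives changed the window, peak strength, interval, start site, gene assignment and replicates. Python 3.11.15, pandas 2.3.3, numpy 2.4.6 and matplotlib 3.10.9 were used, and peak assignment was checked on simulated data.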

Additional observations from a re-analysis of the deposited data

How the results depend on the processing

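The count of 6 pore genes with an IDR promoter peak was between 4 and 6 in all alternatives except a 1000 bp window, which gave 11 with a difference from all genes of 13 points. That difference was -2.86 points at 500 bp, 2.44 with a 250 bp window, 3.13 with the stronger part of the IDR list and 6.12 where the interval had to overlap the start site, so its sign depends on the setting. Inner ring genes with a peak numbered 1, 4 with a 1000 bp window (outer ring 4, so the order of the shares turned), and 0 with the stronger IDR peaks or with those found in every replicate. Leaving out replicates gave 0 to 1 inner ring genes. Central channel genes numbered 0, and 1 with a 1000 bp window or, in an alternative chosen after seeing the data, with Nup98-96 counted there. The median signal of 476.8 was 591.1 for peaks found in every replicate, and 449.0 to 591.1 over the members left on leaving out a replicate. On leaving out a replicate the IDR list was not called anew. Its peaks were kept or dropped by the remaining replicate lists, and their signals stayed those of the full IDR list. The 5 pore genes in the top N of all replicates became 9 with a 1000 bp window and 8 with summits at any position. In all, 16 of the recomputed values moved by more than the spread or 1.5 times, and the rest did not. With Mgtor counted, 6 genes had a peak. Without replicate 1 Nup93-2 dropped out, without replicate 2 Nup160 and Nup93-2, and without replicate 3 Nup160. No paired analysis was possible because there is 1 group. Depth, unknown here, limits the statement on any gene without a summit: it was not detected in these lists.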
